A study of Homo sapiens with 12 samples.

Results

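MYC and its relatives in the MAX network were followed in K562 cells treated with 2 inhibitors of the ABL kinase. The members were 10 genes, MYC, MYCN, MAX, MXD1, MXD3, MXD4, MXI1, MNT, MLX and MLXIP, and every probe set whose platform annotation names one of them was taken. They are 10 of the 13119 genes that the annotation names, with 22 of 22215 probe sets (controls left out). K562 is an established human cell line from a chronic myeloid leukaemia that carries the BCR-ABL1 fusion kinase, and all arrays came from this 1 line. The cells had received 0.05 µM nilotinib (AMN107, 4 arrays), 0.5 µM imatinib (STI571, 4 arrays) or the solvent DMSO (4 arrays), each for 24 h. The doses differed and the labels give each as the IC50 of its drug, so a difference between the treated groups cannot be told apart from a difference in effective dose. The labels number the arrays 1 to 12 but name no separate cultures, so a p-value here covers the variation among the arrays of a group, whose source may be technical.

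MYC is a transcription factor of the basic helix-loop-helix leucine zipper family that binds E-box DNA only as a dimer with MAX. The MXD proteins, MXI1 and MNT also pair with MAX and recruit SIN3 repressor complexes, so they compete with MYC for its partner and its sites, while MLX pairs with MLXIP and some MXD proteins and joins the network to glucose-dependent transcription. In leukaemia cells MYC is a major target of BCR-ABL1 signalling, and a swap of MYC for MXD dimers accompanies the differentiation of blood cells.

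In K562 cells treated with either drug, MYC fell and the repressor-type members MXD3, MXD4 and MXI1 rose relative to DMSO, while MNT did not pass the test. MAX fell by its brightest probe set, MLXIP rose, and MLX was called lower with imatinib by 2 of its 4 probe sets. Some of these calls depended on scaling. After centring each array on its median, the rises of MXI1 with nilotinib and of MLXIP with both drugs were not called. MNT was then called lower with both drugs, while MYC, MXD3 and MXD4 kept their calls. Signals are linear MAS5 values. A log2 fold change was taken on log2(signal + 16), a scale that understates the change of dim probe sets, and a probe set was called at a limma adjusted p under 0.05 over all 11696 probe sets tested (8021 genes). Probe sets entered this test if they named 1 gene and had a mean log2 value at or above the 40th percentile, 6.59, which corresponds to a signal of about 80.6. Of the 19 member probe sets naming 1 gene, 14 passed, and they covered 7 of the 10 genes. The 3 MYCN probe sets, the MXD1 probe set and 1 of 2 MLXIP probe sets fell below it. The 3 MXD4 probe sets also name MIR4800, a microRNA gene, and were therefore tested in a second fit of all 13329 probe sets past the filter.

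**Figure D1:**
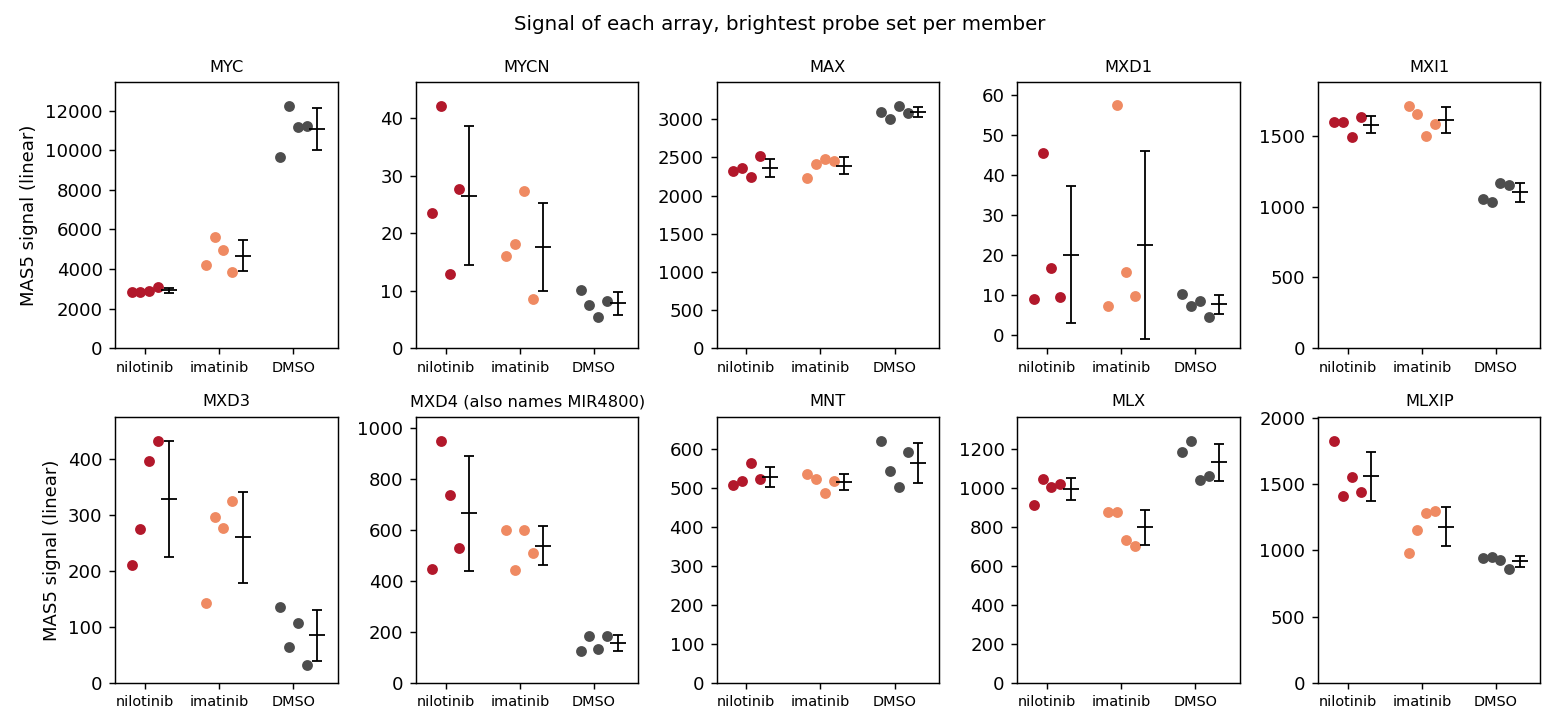
Linear MAS5 signal of each array for the brightest probe set of each member, with nilotinib, imatinib and DMSO from left to right, 4 points each; horizontal ticks are means and bars are SDs. MYC lies between 2843 and 3107 on the nilotinib arrays, between 3864 and 5634 on the imatinib arrays and between 9647 and 12209 on the DMSO arrays, without overlap.

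Whole-array measures moved with the groups. The median signal was 166.2 to 193.7 with nilotinib, 134.6 to 154.7 with imatinib and 116.8 to 121.4 with DMSO, and the 5′ control for 28S ribosomal RNA was 21127 to 26130 with nilotinib, 18636 to 21436 with imatinib and 5277 to 5550 with DMSO, so RNA composition and treatment cannot be told apart. The median of the bacterial controls, given with MYCN below, was also higher with both drugs, and its part in dim probe sets was not tested. Each group holds consecutive array numbers, so array order and treatment cannot be told apart either. Centring each array on its median shifted the median log2 fold change of all probe sets by -0.52 for nilotinib against DMSO, by -0.23 for imatinib against DMSO and by -0.30 for nilotinib against imatinib. Values after centring are therefore given beside the member calls that it changes. For genes of the lists they are given beside some of the calls that it changes, not all. The ratio of 3′ to 5′ actin controls, a sign of RNA length, exceeded 3.5 on nilotinib arrays 1 and 2 and imatinib arrays 5 and 6. Of the markers checked, 6 erythroid genes (such as GATA1, KLF1 and HBE1) stood at the 80.4th to 99.5th percentile of all probe sets, whereas 8 of 9 markers of other cells stood between the 2.1st and the 62.4th. LYZ, a myeloid marker, was at the 93.8th percentile. With each drug 5 of the 6 erythroid markers lay above every DMSO array, and GATA1 overlapped. Their summed signal was 53773 to 61379 with nilotinib, 47757 to 53776 with imatinib and 23292 to 27317 with DMSO. KLF1 alone read 4114 to 4704 with nilotinib, 3739 to 4438 with imatinib and 1949 to 2224 with DMSO. LYZ was lower, at 1650 to 2336 with nilotinib, 1960 to 2656 with imatinib and 2790 to 3075 with DMSO, without overlap between drug and DMSO arrays. CD14, near the floor, was higher with nilotinib, at 11.2 to 19.4 against 4.3 to 8.3 with DMSO, and overlapped DMSO with imatinib. CD3D was lower with imatinib, at 72.4 to 176.0 against 226.3 to 317.6 with DMSO, and overlapped DMSO with nilotinib. The remaining markers of other cells overlapped DMSO with both drugs. The 9 markers of other cells summed to 2744 to 3355 with nilotinib, 2763 to 3413 with imatinib and 3609 to 4114 with DMSO. LYZ made up most of each sum. The part of these markers in the members' changes was not tested. In bulk RNA, fewer cells of one state and less RNA per cell cannot be told apart.

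Against DMSO, nilotinib called 7 of the 14 tested member probe sets, 4 higher and 3 lower, where 54.9% of all probe sets were called, 33.1% higher and 21.8% lower. Imatinib called 7 of 14, with 3 higher and 4 lower, against 35.6% of all probe sets, 20.0% higher and 15.6% lower. Between nilotinib and imatinib 3 of 14 were called, 2 higher and 1 lower in nilotinib, against 11.4%, with 4.77% higher and 6.66% lower. The shares called among the members were near the background for nilotinib and are not a result about the members; for the other comparisons they lay above it, on 14 probe sets of 7 genes that are not independent. In the second fit, which holds the MXD4 probe sets, nilotinib called 10 of 17 (background 55.5%), imatinib 10 of 17 (35.5%), and 3 of 17 were called between the drugs (11.5%). The groups did not overlap for 6 of the 14 with nilotinib against DMSO (48.0% of all probe sets), for 8 with imatinib against DMSO (36.6%) and for 5 with nilotinib against imatinib (16.6%). The median log2 fold change over the 14 probe sets was -0.05 for nilotinib, -0.27 for imatinib and 0.12 between the drugs, and over all probe sets it was 0.15, 0.09 and 0.06.

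MYC, the activating partner of MAX, had the largest fall of the members. Its probe set 202431_s_at read 2857, 2843, 2864 and 3107 on the nilotinib arrays, 4203, 5634, 4960 and 3864 on the imatinib arrays, and 9647, 12209, 11162 and 11234 on the DMSO arrays. The 3 groups did not overlap, and nilotinib was the lowest and DMSO the highest. The mean was 2918 ± 126.5 with nilotinib, 4665 ± 791.6 with imatinib and 11063 ± 1058 with DMSO (SD, n = 4 each). MYC fell by 1.91 ± 0.10 (SE) on the log2 scale with nilotinib (95% interval -2.12 to -1.71, limma adjusted p = 1.8e-11), a ratio of 0.266. With imatinib it fell by 1.25 ± 0.10 (adjusted p = 1.03e-08), a ratio of 0.42. The log2 difference between nilotinib and imatinib was -0.66 (95% interval -0.87 to -0.46, adjusted p = 0.000445). Within the arrays of high actin ratio this difference was -0.77 and within those of lower ratio -0.55. Both falls against DMSO were called in all 27 alternatives run, and centring made them larger (-2.44 with nilotinib and -1.48 with imatinib).

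MYCN, a paralogue of MYC that is mainly active in neural tissue, was near the floor of the array. Its 3 probe sets had mean log2 values between the 5.3rd and 8.7th percentile. The probe set 209756_s_at read 23.5, 42.1, 12.8 and 27.7 with nilotinib, 16.1, 18.2, 27.3 and 8.60 with imatinib, and 10.1, 7.52, 5.38 and 8.12 with DMSO. The nilotinib arrays all lay above the DMSO arrays and the imatinib arrays overlapped both. In a fit without the filter, in which nilotinib called 41.5% of 22215 probe sets, its log2 change with nilotinib was 0.80 ± 0.27 (adjusted p = 0.0238). The other 2 MYCN probe sets were not called. The median of 27 bacterial control probe sets moved in the same direction, at 12.8 to 24.7 with nilotinib, 9.3 to 18.9 with imatinib and 5.6 to 8.8 with DMSO, and its part in the MYCN value was not tested. 

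MAX, the obligate partner of MYC and of the repressors, gave values that depended on the probe set. The brightest, 209332_s_at, read 2322, 2357, 2237 and 2523 with nilotinib, 2228, 2413, 2475 and 2454 with imatinib, and 3099, 3009, 3167 and 3081 with DMSO. Both drug groups lay below every DMSO array and overlapped each other. MAX fell by 0.39 ± 0.07 with nilotinib (adjusted p = 7.11e-05) and by 0.37 ± 0.07 with imatinib (adjusted p = 0.000201), and the drugs differed by -0.02 (95% interval -0.16 to 0.12), though by -0.32 after median centring (adjusted p = 0.0057), when the values against DMSO were -0.91 with nilotinib and -0.59 with imatinib. None of the other 4 MAX probe sets was called lower with both drugs as deposited, and imatinib called none of them. Nilotinib called 214108_at higher, at 0.84 ± 0.23 (adjusted p = 0.0047), with 232.1, 334.8, 207.7 and 160.6 against 143.8, 108.4, 105.2 and 122.7 in DMSO. It called 208403_x_at lower, at -1.28 ± 0.40 (adjusted p = 0.0113), with 19.0, 30.1, 161.1 and 48.8 against 145.2, 144.1, 147.5 and 136.1 in DMSO, where array 3 overlapped. Without the 4 arrays of high actin ratio neither was called (0.56, adjusted p = 0.0872, and -0.57, adjusted p = 0.208), whereas 209332_s_at was (-0.38, adjusted p = 0.000871). After median centring 214108_at was not called either (0.32, adjusted p = 0.244). The probe set 209331_s_at differed from DMSO by -0.003 with nilotinib, but after centring it was called lower with nilotinib (-0.53, adjusted p = 0.00246) and with imatinib (-0.38, adjusted p = 0.0339). Centring also made 210734_x_at a lower call with nilotinib (-1.02, adjusted p = 0.045, where it was -0.50 as deposited).

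Promoters of the members are shown where the repressors rose together or an E-box was found, as 250 bases before to 50 bases after the RefSeq transcription start (GRCh38.p14). Capitals mark the letters searched on both strands, CACGTG, the E-box that the dimers bind, and GTAAACA, a motif of FOXO factors, which are held down by PI3K-AKT signalling downstream of BCR-ABL1. CACGTG was found in 7.26% of 35116 such windows and in 3 of 12 member windows, those of MXD4, MNT and MLX. MYC had no window, so its promoter was not searched. GTAAACA was found in 3.42% of all windows and in 2 of the 3 windows of MXI1. The MXD3 window held neither, nor did the most upstream MXI1 window (chr10:110207355-110207654), which is not shown. These matches are letters in a window and are no sign that a factor binds.
MXD4 (chr4:2262060-2262359, minus strand): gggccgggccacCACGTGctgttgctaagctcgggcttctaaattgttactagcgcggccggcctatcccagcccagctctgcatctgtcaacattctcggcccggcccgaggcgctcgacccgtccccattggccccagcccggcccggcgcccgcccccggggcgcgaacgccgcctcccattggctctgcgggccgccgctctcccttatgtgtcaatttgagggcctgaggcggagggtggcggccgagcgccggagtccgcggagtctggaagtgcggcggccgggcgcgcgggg
MXD3 (chr5:177312703-177313002, minus strand): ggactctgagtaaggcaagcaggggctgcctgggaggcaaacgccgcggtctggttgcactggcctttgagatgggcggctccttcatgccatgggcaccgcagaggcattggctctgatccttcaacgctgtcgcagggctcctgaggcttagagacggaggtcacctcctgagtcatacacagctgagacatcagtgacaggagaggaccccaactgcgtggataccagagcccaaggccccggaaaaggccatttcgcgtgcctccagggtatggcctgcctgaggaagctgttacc
MXI1, middle start (chr10:110209981-110210280, plus strand): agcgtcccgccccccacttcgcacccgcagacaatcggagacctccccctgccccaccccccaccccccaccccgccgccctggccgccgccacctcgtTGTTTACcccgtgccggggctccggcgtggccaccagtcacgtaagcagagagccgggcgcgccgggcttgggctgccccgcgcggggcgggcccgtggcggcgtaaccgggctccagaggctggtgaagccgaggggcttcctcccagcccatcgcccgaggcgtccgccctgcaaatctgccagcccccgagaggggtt
MXI1, downstream start (chr10:110225746-110226045, plus strand): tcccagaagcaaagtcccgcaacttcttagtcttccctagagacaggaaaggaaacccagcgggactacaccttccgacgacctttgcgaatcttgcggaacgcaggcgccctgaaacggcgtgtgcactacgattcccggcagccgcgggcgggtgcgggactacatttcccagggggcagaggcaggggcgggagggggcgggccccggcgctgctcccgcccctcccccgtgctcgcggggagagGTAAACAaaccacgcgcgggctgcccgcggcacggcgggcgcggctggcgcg
MNT (chr17:2401011-2401310, minus strand): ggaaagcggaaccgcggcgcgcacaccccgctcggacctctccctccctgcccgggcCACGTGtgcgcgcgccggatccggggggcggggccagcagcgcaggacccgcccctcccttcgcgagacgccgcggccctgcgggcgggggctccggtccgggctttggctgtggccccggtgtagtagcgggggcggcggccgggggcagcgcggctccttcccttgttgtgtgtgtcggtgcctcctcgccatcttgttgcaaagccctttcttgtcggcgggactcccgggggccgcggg
MLX (chr17:42566850-42567149, plus strand): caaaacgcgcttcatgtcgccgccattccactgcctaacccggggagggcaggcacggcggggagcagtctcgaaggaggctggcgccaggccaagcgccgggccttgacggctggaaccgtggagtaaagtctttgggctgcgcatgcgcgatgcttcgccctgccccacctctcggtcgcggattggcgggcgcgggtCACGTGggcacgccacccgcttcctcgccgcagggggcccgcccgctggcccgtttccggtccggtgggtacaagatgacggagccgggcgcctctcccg

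MXD4, a MAX partner that represses transcription through SIN3 and whose window above holds an E-box, rose by all 3 of its probe sets, each of which also names MIR4800. The brightest, 210778_s_at, read 446.8, 949.4, 738.9 and 530.7 with nilotinib, 600.7, 445.4, 599.9 and 510.4 with imatinib, and 125.3, 182.9, 131.5 and 186.1 with DMSO. Every treated array lay above every DMSO array, and the drugs overlapped. The change was 1.95 ± 0.20 with nilotinib (adjusted p = 2.97e-07, ratio 3.85) and 1.70 ± 0.20 with imatinib (adjusted p = 2.82e-06, ratio 3.24). The other 2 MXD4 probe sets rose by 1.29 and 1.71 with nilotinib and by 1.20 and 1.08 with imatinib. None of the 3 was called between the drugs, but 212346_s_at (0.63, adjusted p = 0.0548) was without imatinib array 7 (0.81, adjusted p = 0.0197). All 3 were called higher against DMSO under each scaling, between 0.77 and 1.42 with nilotinib after centring.

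MXD3, the repressor of this family linked to proliferating cells, rose the most among the member probe sets naming 1 gene. Its probe set 221250_s_at read 210.8, 274.2, 396.8 and 432.0 with nilotinib, 142.0, 296.2, 277.5 and 324.5 with imatinib, and 135.5, 64.4, 106.6 and 32.5 with DMSO. The lowest treated array, imatinib 5, stood just above the highest DMSO array. MXD3 rose by 1.85 ± 0.33 with nilotinib (adjusted p = 0.000153, ratio 3.6) and by 1.52 ± 0.33 with imatinib (adjusted p = 0.00147, ratio 2.87). The drugs differed by 0.33 (95% interval -0.38 to 1.03). The rise was called under every one of the 26 alternatives run, and was 1.33 and 1.30 after centring. The DMSO mean, 84.8 ± 45.4 (SD, n = 4), lay near the filter of 80.6, and the DMSO signals of 64.4 and 32.5 lay below it. The filter used the mean over all 12 arrays, so the high treated arrays helped this probe set enter the test. In the fit without the filter the rise was also called (limma adjusted p = 0.000407 with nilotinib and 0.00354 with imatinib).

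MXI1, another MAX-binding repressor, with the FOXO letters in both windows shown above, rose modestly. It read 1598, 1600, 1496 and 1635 with nilotinib, 1710, 1659, 1503 and 1585 with imatinib, and 1057, 1034, 1168 and 1153 with DMSO. Treated and DMSO arrays did not overlap. MXI1 rose by 0.52 ± 0.08 with nilotinib (adjusted p = 1.96e-05) and by 0.54 ± 0.08 with imatinib (adjusted p = 1.8e-05), with a difference of -0.03 (95% interval -0.19 to 0.13). After median centring the nilotinib value was -0.01 (adjusted p = 0.956) and the imatinib value 0.32 (adjusted p = 0.0155), and MXI1 was lower with nilotinib than with imatinib (-0.33, adjusted p = 0.0168). Quantile normalization and cyclic loess kept the rise with nilotinib.

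MXD1, a repressor that rises as myeloid cells mature, was near the floor, at 8.84, 45.3, 16.6 and 9.47 with nilotinib, 7.19, 57.4, 15.8 and 9.76 with imatinib, and 10.3, 7.31, 8.39 and 4.55 with DMSO. Without the filter it was not called with either drug (0.51, adjusted p = 0.247, with nilotinib, and 0.55, adjusted p = 0.331, with imatinib, which called 20.4% of all probe sets in that fit). 1 array per drug, nilotinib 2 and imatinib 6, stood high, both of high actin ratio. 

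MNT, a widely expressed MAX partner that opposes MYC, read 507.3, 518.9, 564.8 and 521.7 with nilotinib, 535.1, 523.8, 486.4 and 516.9 with imatinib, and 619.6, 543.9, 501.6 and 590.8 with DMSO. The groups overlapped, and MNT differed from DMSO by -0.09 ± 0.10 with nilotinib (95% interval -0.31 to 0.13) and by -0.12 ± 0.10 with imatinib (95% interval -0.34 to 0.10), neither called. After median centring MNT was called lower with nilotinib (-0.61, adjusted p = 0.00029) and with imatinib (-0.35, adjusted p = 0.0342), and under no other of the 27 alternatives.

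**Figure D2:**
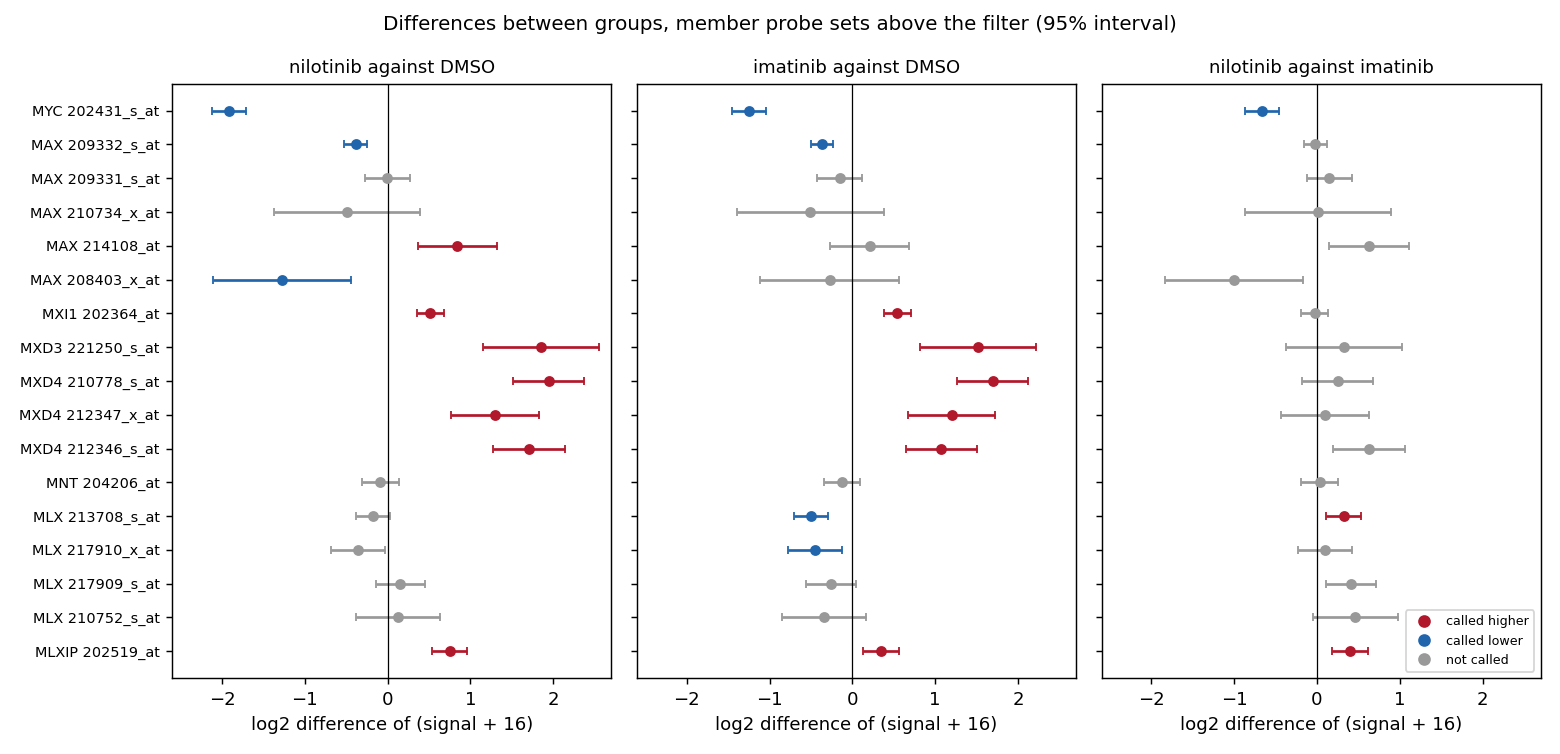
Log2 fold changes of the 17 member probe sets above the filter, with 95% intervals from limma, for nilotinib against DMSO, imatinib against DMSO and nilotinib against imatinib; colour marks the call, and the MXD4 values come from the second fit. MYC lies furthest below 0 in both comparisons with DMSO (-1.91 and -1.25), and MXD3 and MXD4 lie above 0 by 1.08 to 1.95.

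MLX, the partner of MLXIP, read 914.9, 1047, 1004 and 1018 with nilotinib, 878.8, 874.3, 731.7 and 704.4 with imatinib, and 1184, 1240, 1041 and 1063 with DMSO by 213708_s_at. Imatinib lay below every DMSO and every nilotinib array, while nilotinib array 2 overlapped DMSO. MLX fell by 0.50 ± 0.10 with imatinib (adjusted p = 0.000568), and the nilotinib value was -0.18 ± 0.10 (adjusted p = 0.129). The difference between the drugs was 0.32 (adjusted p = 0.0418), and this call was kept in 4 of 12 fits that each left out 1 array. It was lost without nilotinib array 2, 3 or 4, imatinib array 7 or 8, or DMSO array 9, 11 or 12 (adjusted p from 0.0501 to 0.113), and the difference was 0.02 after centring. MLX was then also called lower with nilotinib against DMSO (-0.70, adjusted p = 3.63e-05). A second probe set, 217910_x_at, was called lower with imatinib (-0.46, adjusted p = 0.0291), in 7 of 12 such fits, and was lost without imatinib 5 or 7 or DMSO 10, 11 or 12. Its nilotinib value was -0.36 (adjusted p = 0.0568), and this was called lower after quantile normalization (-0.46, adjusted p = 0.0269), cyclic loess (-0.47, adjusted p = 0.0213) and centring (-0.89, adjusted p = 4.41e-05), with the 4 high-actin arrays left out (-0.45, adjusted p = 0.0276) and in 2 of the 12 fits. The other 2 were not called as deposited. After centring 217909_s_at was called lower with nilotinib (-0.37, adjusted p = 0.0283, against 0.15 as deposited) and with imatinib (-0.48, adjusted p = 0.00954).

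MLXIP, also known as MondoA, a glucose-responsive activator that dimerizes with MLX, rose with both drugs. Its probe set 202519_at read 1822, 1410, 1552 and 1442 with nilotinib, 981.1, 1154, 1284 and 1294 with imatinib, and 937.6, 945.9, 928.8 and 855.3 with DMSO. The 3 groups did not overlap. MLXIP rose by 0.75 ± 0.10 with nilotinib (adjusted p = 7.66e-06) and by 0.35 ± 0.10 with imatinib (adjusted p = 0.0118). The nilotinib arrays exceeded the imatinib arrays by 0.40 (adjusted p = 0.0183), a difference lost without imatinib array 5 (adjusted p = 0.0537), without nilotinib array 1 (adjusted p = 0.0532) or without the 4 arrays of high actin ratio (0.21, adjusted p = 0.255). After centring the 3 values were 0.22, 0.12 and 0.10, none called. The second MLXIP probe set lay at the 0.4th percentile.

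**Figure D3:**
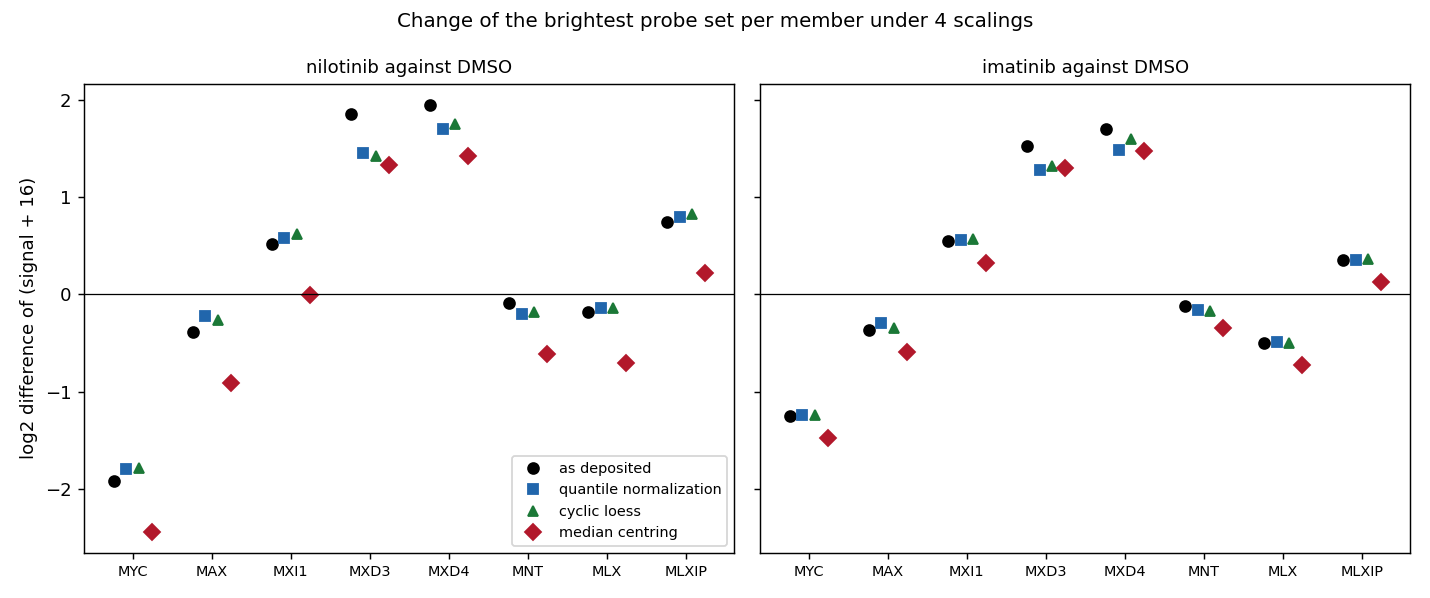
Log2 fold change of the brightest probe set of 8 members under 4 scalings, with nilotinib against DMSO in the left panel and imatinib against DMSO in the right panel. MYC lies below 0 and MXD3 and MXD4 above it under each scaling, while MXI1 with nilotinib is at -0.01 after median centring.

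Genes of the pathway that are not members were read from 7 lists, whose genes are represented by their brightest probe set. The lists were chosen with earlier results of these data known, so their contrast with all genes is not independent of these data. Of 40 listed genes that MYC is known to activate, 32 were tested. With nilotinib 25 fell and 3 rose, and with imatinib 20 fell and 2 rose. The median log2 fold change of the list was -0.83 and -0.55, against 0.15 and 0.09 over all 8021 genes, of which 23.2% fell with nilotinib and 16.9% with imatinib. After centring 30 fell and 0 rose with nilotinib, and 26 fell and 1 rose with imatinib, where 48.9% and 27.9% of all genes fell. ODC1, the first enzyme of polyamine synthesis, averaged 2183 with nilotinib, 3948 with imatinib and 8330 with DMSO (log2 -1.93 and -1.08 against DMSO). CCND2, a cyclin of G1 phase, fell by 2.33 and 1.83, and PHB1 by 1.73 and 1.21, where 1 of 2 PHB1 probe sets shared the call. NOP16, a nucleolar protein of ribosome assembly, fell by 1.67 and 0.92. TFRC, the transferrin receptor, rose by 0.32 with nilotinib, a sign that turned after centring. Between the drugs 15 of the 32 were lower and 0 higher with nilotinib, against 7.46% and 5.06% of all genes, and after centring 28 were lower, against 31.8% of all genes.

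Of 15 listed genes that MYC is known to repress, 8 were tested. With nilotinib 5 of these 8 rose and 1 fell, and with imatinib 4 rose and 2 fell (medians 0.58 and 0.32, where 34.3% and 21.5% of all genes rose). NDRG1, a stress-responsive gene repressed by MYC, averaged 409.1 with nilotinib, 271.8 with imatinib and 102.2 with DMSO, a rise of 1.87 and 1.33. HBP1, a transcriptional repressor, rose by 0.76 and 0.61, the first not called after centring (0.23, adjusted p = 0.194). THBS1 rose by 0.95 with nilotinib (adjusted p = 0.0215), a call lost under each of the 3 other scalings (0.41 to 0.46), without the 4 arrays of high actin ratio (0.55) and without nilotinib array 1 or 2 or DMSO array 9 or 10; the imatinib value was 0.17, not called. CDKN1A, the cell cycle inhibitor p21, fell by 0.95 with imatinib (adjusted p = 0.0273), was not called with nilotinib (0.15) and was higher with nilotinib than with imatinib by 1.10 ± 0.32 (adjusted p = 0.0343). This difference was not called after quantile normalization (0.86, adjusted p = 0.0905), cyclic loess (0.84, adjusted p = 0.106) or centring (0.80, adjusted p = 0.0564). It was lost without the 4 arrays of high actin ratio (0.52, adjusted p = 0.423) and without nilotinib array 1, 2 or 4 or imatinib array 5 or 6 (0.76 at the lowest). The fall with imatinib was not called without the 4 arrays either (-0.49, adjusted p = 0.224), nor without imatinib array 5 or DMSO array 9, 10 or 12, and the nilotinib value turned sign under each of the 3 scalings (-0.25 to -0.37). CDKN1B and GADD45A rose with nilotinib by 0.40 and 0.34, and both signs turned after centring. Of the 8 genes, centring left 1 called higher and 1 lower with nilotinib, and 2 higher and 2 lower with imatinib.

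Of 5 tested genes activated by MLXIP or its relative MLXIPL, 3 rose with each drug. Of all genes, 34.3% rose with nilotinib and 21.5% with imatinib, and a list of 5 genes is too short to set against these shares. TXNIP, which restrains glucose uptake, averaged 7936 with nilotinib, 7045 with imatinib and 324.7 with DMSO, a rise of 4.55 and 4.38. KLF10 rose by 2.99 and 2.77 and PKLR, the liver and red cell pyruvate kinase, by 1.86 and 1.55. These 3 were not called between the drugs. ACACA, acetyl-CoA carboxylase, was called lower with nilotinib (-0.25, adjusted p = 0.0364), a call that its other probe set did not share and that was lost after cyclic loess (-0.22, adjusted p = 0.0608) and in 6 of the 12 fits that each left out 1 array (nilotinib 2, 3 or 4 or DMSO 9, 11 or 12). FASN was not called.

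The lists of cofactors, turnover genes and regulators held falls and rises together. Of 3 other MAX network genes (MGA and MYCL are given below), 2 fell with nilotinib, 1 fell with imatinib and 0 rose. Of all 8021 genes, 34.3% rose and 23.2% fell with nilotinib and 21.5% rose and 16.9% fell with imatinib, and after centring 10.2% rose and 48.9% fell with nilotinib and 10.0% rose and 27.9% fell with imatinib. Among 18 cofactors of MYC and of the repressors, 2 rose and 7 fell with nilotinib, and 1 rose and 3 fell with imatinib; after centring 12 fell with nilotinib and 8 with imatinib. The 3 of 18 that fell with imatinib are at the share of all genes and are no result about the list. RUVBL2, an ATPase of the TIP60 complex, fell by 1.52 and 1.07, and its partner RUVBL1 by 1.32 and 0.83. KAT5, the acetylase of that complex, rose by 0.86 and 0.71 in 1 of 3 probe sets, the first not called after centring (0.33, adjusted p = 0.0775). CDK9, the kinase of the elongation factor P-TEFb, rose by 0.87 with nilotinib (adjusted p = 0.0124; imatinib 0.51, not called), and was not called under any of the 3 other scalings (0.34 to 0.45). With the 4 high-actin arrays left out it was called with both drugs (1.03 and 1.02).

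Of 14 genes of MYC protein turnover, 4 rose and 3 fell with nilotinib, and 2 rose and 2 fell with imatinib, whereas after centring none rose and 9 and 4 fell. As deposited these shares are near or below those of all genes, so the counts are no result about the list. AURKA, a kinase that stabilizes MYC family proteins, fell by 0.75 with nilotinib and by 0.31 with imatinib, the second (adjusted p = 0.0255) lost without imatinib array 5 or 7 or DMSO array 9 or 10. AXIN1, a scaffold of the complex that marks β-catenin and MYC for degradation, fell by 0.78 with nilotinib (adjusted p = 0.0292; imatinib -0.10, not called). That call was lost without the 4 arrays of high actin ratio (-0.61, adjusted p = 0.0649) and without nilotinib array 2 or 3 or DMSO array 9, 10 or 12. BTRC, a substrate receptor of an SCF ubiquitin ligase, rose by 0.72 with nilotinib (adjusted p = 0.0397; imatinib 0.44, not called), and was not called under any of the 3 other scalings (0.20 to 0.25) or without nilotinib array 2 or 3 or DMSO array 9, 10 or 11. PPP2R5A, a phosphatase subunit that acts on MYC, rose by 0.69 with nilotinib, though not after centring (0.17, adjusted p = 0.383). Its imatinib value, 0.42 (adjusted p = 0.0475), was called in 5 of the 12 fits without 1 array and lost after quantile normalization, cyclic loess and centring (adjusted p = 0.103, 0.0812 and 0.398). It was also lost with the 4 high-actin arrays left out (adjusted p = 0.13). The number of turnover genes higher with imatinib was between 0 and 2 over these 12 fits and differed from 2 in 9 of them.

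Of 16 regulators of MYC transcription and translation, 6 rose and 4 fell with nilotinib, and 4 rose and 2 fell with imatinib, whereas after centring 1 and 2 rose and 10 and 5 fell. These shares too are near those of all genes and are no result about the list. MYB, a transcription factor of blood progenitors, averaged 842.9 with nilotinib, 1364 with imatinib and 4793 with DMSO (log2 -2.49 and -1.81). CNBP, which binds a control element of MYC, fell by 0.91 and 0.59, while FUBP1, another factor that binds upstream of MYC, rose by 1.19 and 0.87 in 2 of 4 and 1 of 4 probe sets. CTNNB1, β-catenin, which activates MYC with TCF factors, rose by 0.72 and 0.74, though with nilotinib it was not called after centring (0.19, adjusted p = 0.0821). MGA, a MAX partner, fell by 0.52 with nilotinib, and its imatinib value of -0.33 was called lower under the 3 other scalings (-0.42 to -0.56) but not as deposited. MYCL, a paralogue of MYC, fell by 0.70 and 0.79 in 1 of its 2 probe sets, the first lost without nilotinib array 4 or DMSO array 11 and the second with the 4 high-actin arrays left out (-0.68, adjusted p = 0.0508).

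**Figure D4:**
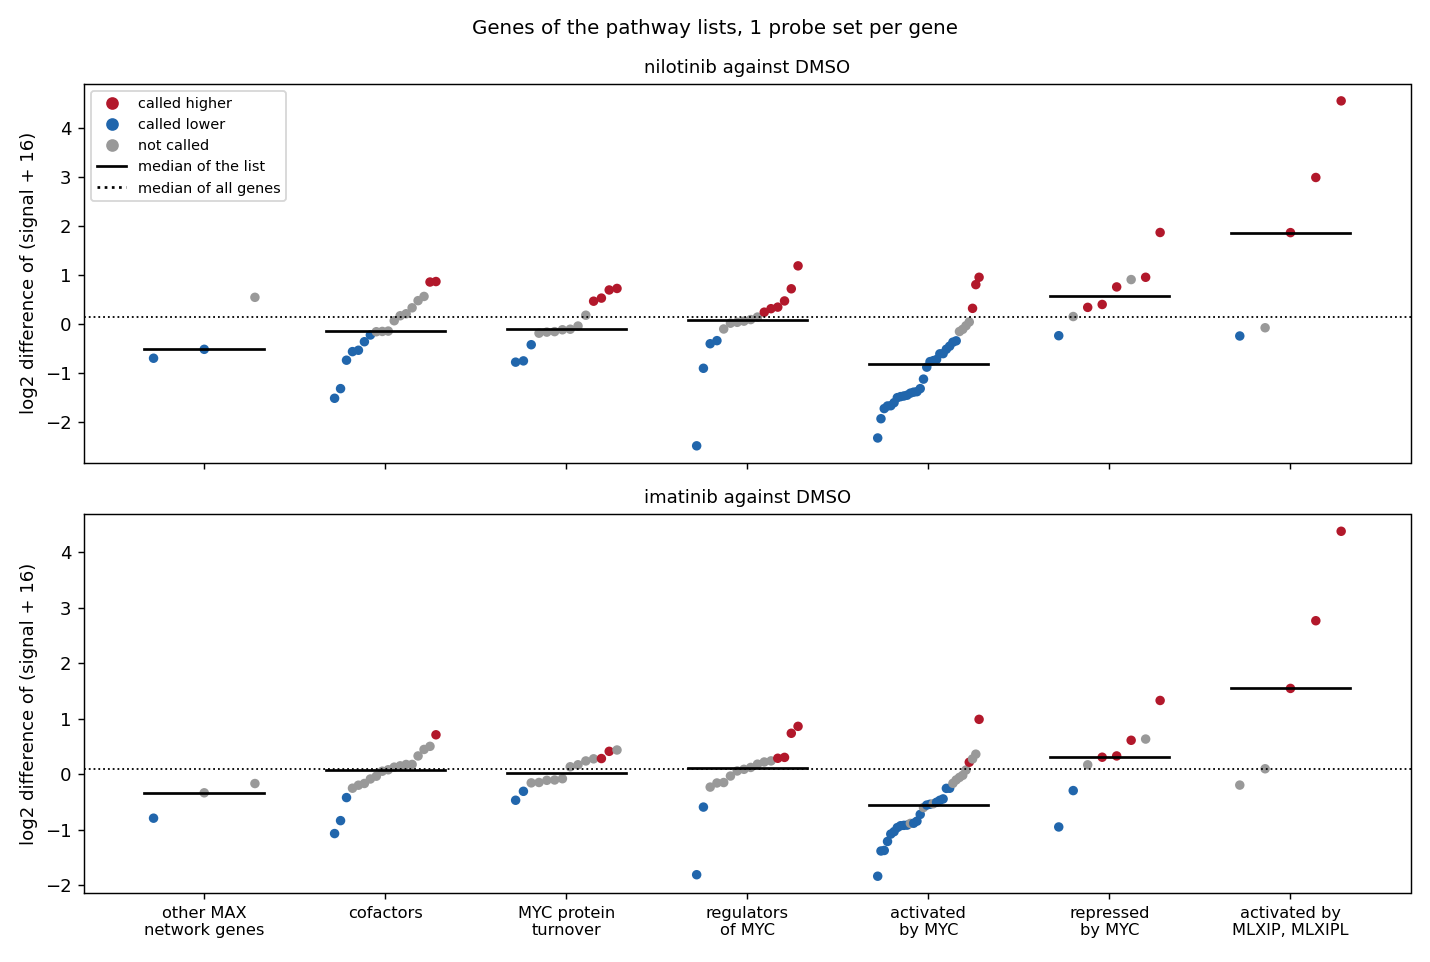
Log2 fold changes of the tested genes of each list, 1 point per gene, for nilotinib against DMSO (upper panel) and imatinib against DMSO (lower panel); solid lines are list medians and the dotted line is the median of all genes. Of the genes activated by MYC, 25 of 32 with nilotinib and 20 of 32 with imatinib are called lower, and TXNIP is the highest point of both panels (4.55 and 4.38).

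The genes whose 12 array values followed MYC most closely were found by the mean absolute difference of their log2 values, each set to its DMSO mean. They were CD24 (0.08), NDUFAF4 (0.12), GCSH (0.12), HHEX (0.15) and ODC1 (0.16). For MXD3 the closest were SLC29A1 (0.24), EPOR (0.24), TGM5 (0.30), SLC67A1 (0.31) and ZFTRAF1 (0.33). Of the 14 member probe sets, 6 kept the order of the 3 group means after centring, those of MYC, MXD3, MLXIP, 1 of MLX and 2 of MAX. The comparisons with DMSO share the DMSO arrays.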

How the data were processed

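Array titles gave the group of all 12 arrays, with 0 unmapped columns. The authors deposited linear intensity values from MAS5, per the submitters' processing notes. Its version is not given in the sources used here. Values were used as deposited, as log2(signal + 16). Of 22277 probe sets, 62 controls were left out; 19064 of the rest named 1 gene, 1043 several and 2108 none. MAS5 subtracts a local background and scales each array by 1 factor, so differences in RNA composition stay in the values. Group means were compared in R 4.3.3 using limma 3.58.1 with an intensity trend and Benjamini-Hochberg adjustment over all probe sets tested. The test was checked on simulated data. The number of arrays limits the precision (median standard error 0.158 on the log2 scale). Members and lists were chosen with earlier results of these data known, and the fit with the MXD4 probe sets was examined under further settings chosen after seeing the data. From each list up to 4 called genes with the largest change were named, and TFRC, CDKN1B, GADD45A and FASN were named after their values were seen. Similarity to MYC and MXD3 was ranked over tested probe sets. Promoters came from RefSeq (GRCh38.p14), matched by symbol for 9 of 10 members, all but MYC. Alternatives were pseudocounts of 1 and 64, other filters and scalings, other treatments of several probe sets, other variance models, array weights, 2 groups only, a minimum log2 change of 1, leaving out the 4 arrays of high actin ratio, and leaving out each array. Figures were drawn with matplotlib 3.10.9.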

Additional observations from a re-analysis of the deposited data

Results flagged for a closer look

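The MYC signal of nilotinib array 4 (3107) lay apart from the other 3 nilotinib arrays (2843 to 2864), with a gap of 0.917 of the group's range on the log2 scale, which is above the critical value of Dixon's test for 4 arrays. Of 66 groups tested this was the 1 that passed, and chance alone flags about 1 in 20. For MYC this array lay below every imatinib and DMSO array.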

How the results depend on the processing

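The falls of MYC against DMSO were called in all 27 alternatives run for it. The rises of MXD3 were called in all 26 run for it, since the filter at the 60th percentile left MXD3 out of the test. The rises of MXD4 were called in all of a smaller set. That set held the other scalings, no filter, the fit without the 4 arrays of high actin ratio and the fits without single arrays. The difference of MYC between the drugs (-0.66) was called in 26 of 27, and not with a minimum log2 change of 1, since it is smaller than that. Member probe sets called higher with nilotinib against DMSO numbered 4, and 2 with the filter at the 60th percentile, 1 after median centring, 7 with probe sets naming several genes included and 1 with the minimum change. Those lower numbered 3, and 9 after median centring and 1 with probe sets averaged per gene. For imatinib against DMSO the higher count was 3, and 6 with probe sets naming several genes and 1 with the minimum change; the lower count was 4, and 7 after centring, 2 with the mean of probe sets and 1 with the minimum change. Between nilotinib and imatinib the higher count was 2, and 1 without the filter, with the mean of probe sets, with array weights, with 2 groups only and without the 4 arrays of high actin ratio, and 0 after centring and with the minimum change. The lower count was 1, and 2 after quantile normalization and cyclic loess, 4 after centring and 0 with the minimum change. Leaving out single arrays gave 1 to 2 higher and 1 to 2 lower. After median centring, 17% of all called probe sets were higher with nilotinib against DMSO, where 60.4% were as deposited.

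The sign turned for MXI1 with nilotinib against DMSO after centring (-0.007, not called). Differences between nilotinib and imatinib that were not called also turned. For MAX they were 0.075 after quantile normalization and 0.074 after cyclic loess, and -0.053 to 0.005 when single arrays were left out. For MXI1 they were 0.024 and 0.046 after these, 0.019 without the arrays of high actin ratio, and -0.061 to 0.000 when single arrays were left out. For MNT they were -0.035 after quantile normalization, -0.264 after centring and -0.011 after cyclic loess. For MXD4 they were -0.047 by 210778_s_at after centring, and by 212347_x_at -0.044 after quantile normalization, -0.204 after centring, -0.064 after cyclic loess and -0.034 to 0.259 when single arrays were left out. The causes were not tested. No paired analysis was possible because the labels number the arrays 1 to 12 and the groups share no number. Dim probe sets (MYCN, MXD1) limit what can be read.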
